A study of Mus musculus with 70 samples.

Results

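Renca is a mouse renal cancer cell line of BALB/c origin, and its transcriptome was compared between cells stimulated with interferon beta (IFNb) and unstimulated cells. The comparison held 5 of the 70 RNA-seq libraries of the series: 3 with IFNb, numbered 1 to 3, and 2 unstimulated (NS), numbered 2 and 3. They were chosen by their labels alone. IFNb was given at 1000 activity units per mL for 48 h, and the NS group has no added interferon in its labels. All cells were grown in the same serum-containing medium and the labels name no engineered change in Renca. The other libraries came from 7 further murine cancer lines (B16.1, CT26.2, KPC.2, LLC, MC38.7, Panc02.3 and YUMMER1.7) with the same treatments, and from Renca with 100 ng per mL interferon gamma (IFNg) for 48 h. Whether replicates came from separate cultures is not stated in the labels, and the p-values therefore reflect only how far libraries of a group lay apart, which may be technical.

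IFNb belongs to the type I interferons, which most cells release on sensing viral nucleic acid. It binds the receptor chains Ifnar1 and Ifnar2, and the attached kinases Jak1 and Tyk2 set off signalling through Stat2 and Irf9. These act at interferon-stimulated response elements in DNA, raising antiviral effectors, antigen presentation genes and the factors of the pathway itself. In tumour cells the pathway is known both for restraining growth and for making cells visible to T cells.

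The 5 libraries held between 8428247 and 14204783 estimated counts, and all pairs within a group differed by more than sampling noise. Values are given as CPM, the counts scaled to a common library size by TMM, and CPM is not corrected for gene length, so it is compared between libraries and not between genes. The share of counts from mitochondrially encoded genes was 4.89% in NS replicate 2, 3.46% in NS replicate 3 and between 3.04% and 3.46% with IFNb. The labelled renal origin was read against kidney genes: Pax8, a kidney lineage transcription factor, was at 182 CPM in NS cells (SD 13.4, n = 2), and Cdh16, the kidney-specific cadherin, at 429 CPM (SD 11.4, n = 2). Of 17 mature tubule and glomerular genes listed, only 8 had enough counts to be tested, by a filter over all lines of the series. In Renca itself the 17 were low, with a summed level of 23.5 and 24.5 CPM in the NS libraries. The 11 listed lineage genes, Pax8 and Cdh16 included, summed to 733 and 772 CPM. The pan-leukocyte marker Ptprc had 0 counts over the NS libraries and 2 over the IFNb libraries.

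IFNb raised and lowered similar numbers of genes in Renca. Of 16147 genes tested, 1143 rose (7.08% of those tested) and 1096 fell (6.79%) at an adjusted p under 0.05 (quasi-likelihood test of edgeR, adjusted by Benjamini-Hochberg over all genes tested). At least 2-fold changes were seen for 111 risen genes (0.687%) and 120 fallen genes (0.743%). Their median log2 fold changes were 1.51 and -1.44, and with genes of 3 or fewer counts in a group set at their bound the medians were 1.50 and -1.41. At least 4-fold rises were fitted for 36 genes and falls for 28, of which 11 and 16 had 3 or fewer counts in the lower group, so that their fitted size is not exact. In all 111 risen genes and in 114 of the 120 fallen genes the 3 IFNb libraries did not overlap the 2 NS libraries. Over all genes tested, 20.2% were higher and 20.3% lower in every IFNb library than in both NS libraries. In RNA from whole cultures, a change in every cell and a change in the share of expressing cells cannot be told apart. Without NS replicate 2, which had the higher mitochondrial share, 112 genes rose and 75 fell at least 2-fold, and without NS replicate 3 the counts were 96 and 109. The median log2 fold change over the 11982 genes with a mean above 1 CPM in Renca was 0.00.

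**Figure D1:**
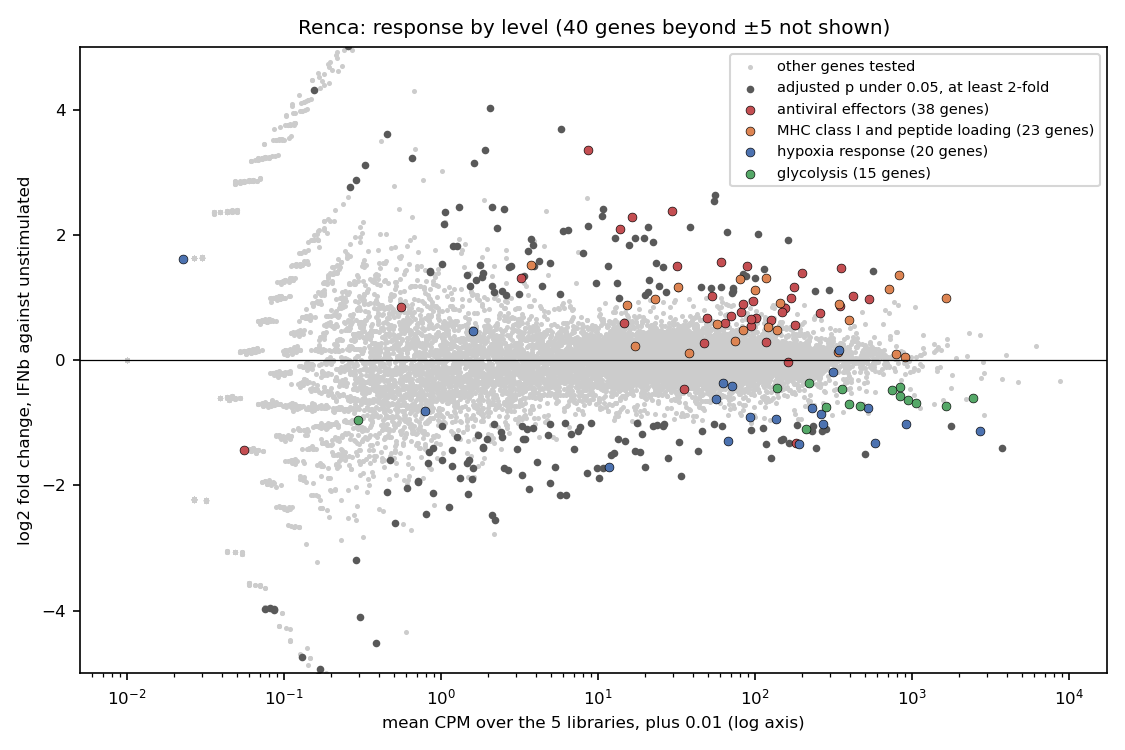
Log2 fold change with IFNb (vertical axis) against the mean CPM over the 5 libraries plus 0.01 (horizontal log axis), 1 point per gene tested, with 4 gene lists coloured; 40 genes beyond the vertical axis are not drawn. Antiviral and MHC class I genes lie mostly above 0 at middle and high levels, while hypoxia response and glycolysis genes lie mostly below 0, and the rows of grey points at the left are genes with a few counts.

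The 12 largest rises were taken among genes with more than 3 counts in each group and no overlap between groups, with predicted loci left out. Trim30d, a member of the tripartite motif family, had 0.742 and 0.654 CPM in the NS libraries and 9.47, 9.66 and 8.38 CPM with IFNb (log2 fold change 3.69, SE 0.28, edgeR adjusted p = 6.4e-16). Phf11b, a PHD finger gene, had 0.165 and 0.218 CPM in the NS libraries and 3.26, 3.55 and 2.93 CPM with IFNb (log2 fold change 4.03, SE 0.52, edgeR adjusted p = 4.3e-08). In both genes every IFNb library stood far above both NS libraries, although the level was low. Phf11d and Phf11a, which lie near Phf11b on chromosome 14, rose by 2.54 and 2.44 on the log2 scale. These neighbours are similar in sequence, and the estimated counts may be divided unevenly among them. Ifi44l, an interferon-induced gene, went from 1.32 and 1.31 CPM to 14.5, 14.6 and 11.5 CPM (log2 fold change 3.36, SE 0.32, edgeR adjusted p = 5e-08).

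Zbp1, a sensor of Z-form nucleic acid that can start necroptosis, had 14.3 and 12.4 CPM in the NS libraries and 81.1, 89.7 and 80.3 CPM with IFNb (log2 fold change 2.63, SE 0.12, edgeR adjusted p = 3.7e-23). Ifit3, which works with Ifit1 on viral RNA, had 11 and 5.12 CPM in the NS libraries and 40.8, 46.5 and 44.4 CPM with IFNb (log2 fold change 2.38, SE 0.17, edgeR adjusted p = 3.6e-17). Mx1 belongs to a family of dynamin-like antiviral GTPases, but the reference annotation gives it as a transcribed pseudogene. It had 6.35 and 3.16 CPM in the NS libraries and 21.4, 27.6 and 23.9 CPM with IFNb (log2 fold change 2.29, SE 0.21, edgeR adjusted p = 7.2e-13). For Ifit3 and Mx1 NS replicate 2 was clearly higher than NS replicate 3, and both stayed below all IFNb libraries. Ube2l6, the enzyme that passes ISG15 to its carrier ligases, showed the opposite order of the NS libraries with 2.23 and 4.14 CPM in the NS libraries and 13.7, 15.9 and 16.6 CPM with IFNb (log2 fold change 2.31, SE 0.19, edgeR adjusted p = 2.3e-14). C4b, a complement component, had 2.89 and 3.16 CPM in the NS libraries and 16.7, 16.8 and 14.3 CPM with IFNb (log2 fold change 2.41, SE 0.18, edgeR adjusted p = 7.2e-16). Plxdc1, a plexin domain gene, reached only 1.73, 1.65 and 1.11 CPM from 0.330 and 0.327 CPM (log2 fold change 2.18, SE 0.47, edgeR adjusted p = 6e-04). The pseudogene Kansl2-ps completed the 12 largest rises (log2 fold change 2.14, SE 0.71, edgeR adjusted p = 0.032), but its call was lost without either NS library.

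Some risen genes had 3 or fewer counts over the NS group, so that their fold is a lower bound set against 3 counts. There were 11 such genes among the 111. Parp11, a mono-ADP-ribosyltransferase, had 0.640, 1.49 and 0.908 CPM with IFNb and was at least 6.98-fold higher (edgeR adjusted p = 0.00025). Ly6i was at least 5.09-fold higher, Inpp4b at least 3.58-fold, Fbxo39 at least 3.02-fold and Jam2, a junctional adhesion molecule, at least 3.02-fold. The calls for Ly6i, Inpp4b, Fbxo39 and Jam2 were lost when NS replicate 2 was left out.

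The DNA before these genes was searched for the core of the interferon-stimulated response element, the letters GAAANNGAAA on either strand, where N is any base. The windows ran from 250 bases before to 50 bases after each start site, from RefSeq on GRCm38.p6, and 65 of the 111 genes risen at least 2-fold had one. Of these 65, 25 held the letters (38.5%), against 455 of 11558 tested genes with a window (3.94%) and 1 of 83 fallen genes (1.2%). The gamma-activated site, TTCNNNGAA, which reads the same on both strands, was in 11 of the 65 risen genes (16.9%), 7 of the 83 fallen genes (8.43%) and 991 of all 11558 (8.57%). Windows of 3 of the largest rises are printed first, then 2 genes with the same core and a smaller rise, all 5′ to 3′ on the strand of the gene and with the core in capitals.
Phf11b (chr14:59341281-59341580, minus strand): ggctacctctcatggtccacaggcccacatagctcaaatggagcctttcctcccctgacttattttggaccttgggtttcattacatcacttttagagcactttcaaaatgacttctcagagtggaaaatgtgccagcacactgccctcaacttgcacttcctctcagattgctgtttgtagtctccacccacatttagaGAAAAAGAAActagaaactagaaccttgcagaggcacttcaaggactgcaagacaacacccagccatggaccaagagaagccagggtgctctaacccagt
Trim30d (chr7:104507800-104508099, minus strand): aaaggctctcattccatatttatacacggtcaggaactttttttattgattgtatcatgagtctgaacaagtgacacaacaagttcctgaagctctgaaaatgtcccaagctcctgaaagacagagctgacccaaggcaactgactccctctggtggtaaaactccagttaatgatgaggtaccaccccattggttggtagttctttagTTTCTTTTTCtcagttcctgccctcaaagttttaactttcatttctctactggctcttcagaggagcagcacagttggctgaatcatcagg
Ifit3 (chr19:34583279-34583578, plus strand): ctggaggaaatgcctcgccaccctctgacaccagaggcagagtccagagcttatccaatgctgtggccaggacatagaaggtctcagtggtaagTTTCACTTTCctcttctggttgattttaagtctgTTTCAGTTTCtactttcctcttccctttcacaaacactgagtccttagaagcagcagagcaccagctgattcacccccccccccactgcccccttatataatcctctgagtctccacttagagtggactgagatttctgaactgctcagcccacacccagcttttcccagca
Isg15 (chr4:156200769-156201068, minus strand): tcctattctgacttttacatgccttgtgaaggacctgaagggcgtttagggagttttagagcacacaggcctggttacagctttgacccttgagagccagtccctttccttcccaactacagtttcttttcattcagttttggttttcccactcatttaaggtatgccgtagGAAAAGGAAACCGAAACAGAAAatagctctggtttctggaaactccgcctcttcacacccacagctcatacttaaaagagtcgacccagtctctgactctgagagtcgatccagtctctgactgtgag
Oas1a (chr5:120907476-120907775, minus strand): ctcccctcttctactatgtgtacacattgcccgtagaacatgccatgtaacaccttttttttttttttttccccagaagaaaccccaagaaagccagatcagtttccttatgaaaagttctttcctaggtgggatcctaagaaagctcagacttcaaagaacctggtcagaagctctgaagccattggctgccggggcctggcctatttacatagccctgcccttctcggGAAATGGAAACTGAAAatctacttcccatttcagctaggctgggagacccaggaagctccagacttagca
In Isg15 the 3 overlapping matches and in Oas1a the 2 overlapping matches run together into 1 stretch of capitals, while Ifit3 held 2 separate matches on the opposite strand. A match is a run of letters and not a measured binding site.

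Antiviral effectors rose as a group, by modest amounts. Of 38 tested, 33 rose and 2 fell, with a median log2 fold change of 0.84 beside 0 over all genes tested, and 13 rose at least 2-fold. Ifi44 had 177 and 163 CPM in the NS libraries and 476, 462 and 474 CPM with IFNb (log2 fold change 1.47, SE 0.09, edgeR adjusted p = 8.2e-19), and the RNA-binding Ifit1 had 34.2 and 20.4 CPM in the NS libraries and 82.4, 82.1 and 81.8 CPM with IFNb (log2 fold change 1.56, SE 0.13, edgeR adjusted p = 7.7e-15). The oligoadenylate synthetases make the signal that activates RNase L, and their rises were small: Oas2 had 95.3 and 92.3 CPM in the NS libraries and 139, 151 and 149 CPM with IFNb (log2 fold change 0.64, SE 0.12, edgeR adjusted p = 7.7e-05). Oas1a rose by 0.83, Oas1g by 0.76 and Oas3 by 1.17 on the log2 scale, all 4 genes lying within 1 cluster on chromosome 5. Oas1a and Oas1g are near copies whose counts may be divided unevenly. Mx2, annotated like Mx1 as a transcribed pseudogene, rose by 1.50, Ddx60 by 1.50 and Rsad2, which encodes viperin, by 0.99. The members that fell were Ifi27, a mitochondrial and nuclear-envelope protein gene, with 287 and 277 CPM in the NS libraries and 112, 121 and 106 CPM with IFNb (log2 fold change -1.32, SE 0.10, edgeR adjusted p = 3.1e-15), and the exonuclease Isg20 (log2 fold change -0.45, SE 0.15, edgeR adjusted p = 0.034), whose call was lost without IFNb replicate 1, IFNb replicate 3 or either NS library. Ifi27l2a, of the same list, rose by 0.60 on the log2 scale. Its annotated span on chromosome 12 contains that of Ifi27, and estimated counts may be divided unevenly between them. Ifitm2 did not pass (log2 fold change -0.03, SE 0.08, edgeR adjusted p = 0.9), whereas Ifitm3, which blocks viral entry, rose by 0.97.

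**Figure D2:**
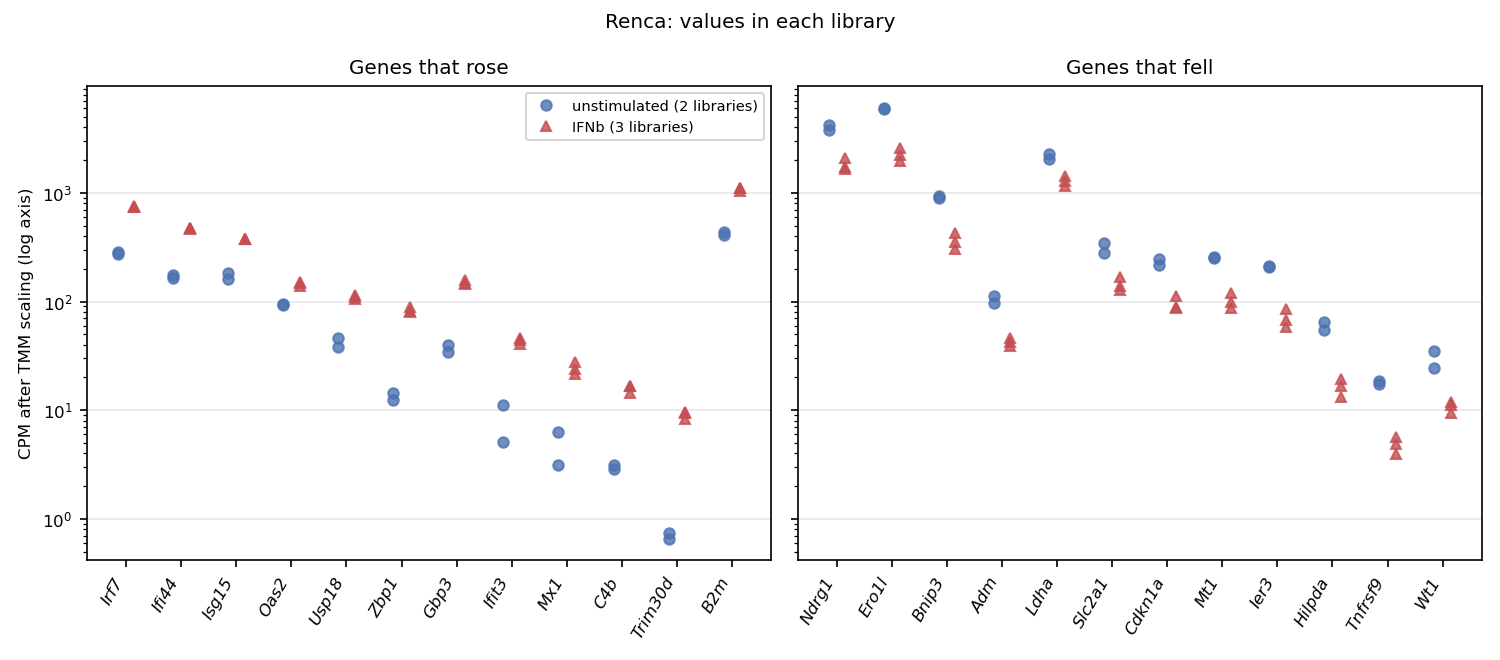
CPM after TMM scaling (vertical log axis) of 12 genes that rose and 12 that fell; circles are the 2 unstimulated libraries and triangles the 3 IFNb libraries. No gene drawn has overlapping groups, and the IFNb libraries of the falling genes are spread more widely than those of Irf7, Ifi44 or Isg15.

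The ISG15 system attaches the ubiquitin-like protein Isg15 to other proteins, and all 6 of its listed genes rose (median log2 fold change 0.89). Isg15 itself had 183 and 162 CPM in the NS libraries and 372, 376 and 372 CPM with IFNb (log2 fold change 1.11, SE 0.11, edgeR adjusted p = 2.5e-12). The deconjugating enzyme Usp18, which also dampens receptor signalling, had 46.1 and 38.0 CPM in the NS libraries and 106, 115 and 111 CPM with IFNb (log2 fold change 1.38, SE 0.11, edgeR adjusted p = 4.2e-15). All 6 interferon-responsive PARP genes rose as well (median 0.91), among them Parp14 by 1.46 and Dtx3l by 0.94. Of 18 GTPases of the guanylate-binding and immunity-related families, which act on pathogen-containing vacuoles, 16 rose, 14 of them at least 2-fold, with the highest median of these groups (1.29). The number risen was 13 with limma-voom, and 14 without IFNb replicate 2 or without IFNb replicate 3. Gbp8 and Gbp2b lost their calls in each of these fits. Gbp3 had 39.5 and 34.2 CPM in the NS libraries and 149, 145 and 156 CPM with IFNb (log2 fold change 2.02, SE 0.09, edgeR adjusted p = 6e-26) and Tgtp1 had 14.1 and 11.1 CPM in the NS libraries and 53.1, 59.4 and 55.5 CPM with IFNb (log2 fold change 2.13, SE 0.18, edgeR adjusted p = 9.2e-14). Gvin1 counted as fallen only through NS replicate 2, which held all 49 of its counts. It had 0 counts in NS replicate 3 and in every IFNb library, and its call was lost without NS replicate 2. Gbp5 did not pass (log2 fold change 0.16, SE 0.15, edgeR adjusted p = 0.59).

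Genes of nucleic acid sensing rose in 13 of 21 cases and none fell (median 0.74). The list holds sensors, but also adaptors such as Mavs and Myd88, other receptors such as Tlr2 and Nod1, and Trim genes. Besides Zbp1 and Trim30d, Trim30a rose by 1.31 and Ifih1, the RNA sensor MDA5, by 0.93. Tmem173, which encodes STING, did not pass (log2 fold change 0.02, SE 0.10, edgeR adjusted p = 1). Cgas was near 0 throughout, with 8 and 3 counts over the NS and IFNb groups, and did not pass.

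Among signalling genes several factors downstream of the receptor rose, and the receptor chains did not pass the test. The receptor chains had log2 fold changes of 0.10 for Ifnar1 and 0.09 for Ifnar2 (edgeR adjusted p = 0.42 and 0.64). Stat2 rose by 0.83 and Irf9 by 0.48, while Jak1 fell by 0.19 on the log2 scale, a call lost without any 1 of the 5 libraries. Irf7, the transcription factor that amplifies interferon production, had 272 and 284 CPM in the NS libraries and 746, 763 and 736 CPM with IFNb (log2 fold change 1.43, SE 0.09, edgeR adjusted p = 1.6e-18), a change far beyond the spread within either group. Nlrc5, the activator of MHC class I genes, rose by 0.93, Sp100 by 1.15, Sp110 by 1.18 and Batf2 by 1.34. Irf1 did not pass (log2 fold change 0.13, SE 0.08, edgeR adjusted p = 0.38). In all, 6 of 12 listed transcription factors and 4 of 11 receptor and JAK-STAT genes rose. Irf5, also among the 6, rose by 1.43. Its call was lost with limma-voom, when Renca libraries were fitted alone and without IFNb replicate 1. Of 12 feedback inhibitors 3 rose, and only Usp18 did so without NS replicate 2. Socs1 had 2.39 and 2.29 CPM in the NS libraries and 3.20, 4.62 and 2.72 CPM with IFNb and did not pass (log2 fold change 0.59, SE 0.28, edgeR adjusted p = 0.18).

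Antigen presentation on MHC class I rose together, in 18 of 23 genes tested with no fall (median log2 fold change 0.88). B2m, the shared light chain, had 408 and 437 CPM in the NS libraries and 1044, 1105 and 1099.9 CPM with IFNb (log2 fold change 1.36, SE 0.07, edgeR adjusted p = 1.7e-22). The heavy chain H2-K1 had 414 and 406 CPM in the NS libraries and 913, 939 and 859 CPM with IFNb (log2 fold change 1.14, SE 0.09, edgeR adjusted p = 7.7e-15), and H2-D1 rose by 0.99. Renca is of BALB/c origin and the reference is that of C57BL/6J mice, so reads of its own class I alleles may be assigned unevenly among heavy-chain genes. The peptide transporter Tap1 rose by 1.31, its partner Tap2 by 0.53 and the loading factor Tapbp by 0.65. The immunoproteasome subunits Psmb9 and Psmb8 rose by 1.16 and 0.91, while 1 of 8 constitutive proteasome subunits rose (median 0.03). The general chaperones Calr and Canx did not pass (log2 fold change 0.05, SE 0.06, edgeR adjusted p = 0.72 and log2 fold change 0.13, SE 0.07, edgeR adjusted p = 0.29). None of 8 MHC class II genes passed, and their invariant chain Cd74 had 34.5 and 46.0 CPM in the NS libraries and 34.7, 36.7 and 34.7 CPM with IFNb (log2 fold change -0.18, SE 0.12, edgeR adjusted p = 0.43).

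Checkpoint and immune-evasion genes were mixed: 5 of 17 rose and 1 fell (median 0.12). Cd274, which encodes PD-L1, had 41.4 and 35.8 CPM in the NS libraries and 42.0, 43.5 and 40.6 CPM with IFNb, overlapping values that did not pass (log2 fold change 0.12, SE 0.10, edgeR adjusted p = 0.51). Lgals9, a galectin that binds inhibitory receptors, rose by 0.73 and Serpinb9, a granzyme B inhibitor, by 0.52. Pvr, a ligand of DNAM-1 and TIGIT, had 161 and 163 CPM in the NS libraries and 105, 115 and 101 CPM with IFNb (log2 fold change -0.60, SE 0.08, edgeR adjusted p = 1.6e-08).

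Chemokines and cytokines rose in 5 of 22 cases. The monocyte attractant Ccl2 had 13.2 and 9.37 CPM in the NS libraries and 31.4, 23.9 and 27.9 CPM with IFNb (log2 fold change 1.28, SE 0.15, edgeR adjusted p = 1.5e-09), and the macrophage growth factor Csf1 rose by 0.77. Cxcl10, an attractant of T cells, had 9.07 and 4.47 CPM in the NS libraries and 12.1, 11.6 and 13.7 CPM with IFNb (log2 fold change 0.82, SE 0.22, edgeR adjusted p = 0.0058), and its call was lost without NS replicate 3. Cxcl9 and Ccl5 did not pass and were below 2 CPM on average in both groups. Without either NS library 3 of the 22 rose.

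Complement genes rose in 4 of 13 cases and fell in 2. Besides C4b, the neighbouring genes Cfb and C2 on chromosome 17 rose, Cfb with 7.83 and 6.43 CPM in the NS libraries and 26.0, 29.1 and 28.7 CPM with IFNb (log2 fold change 1.95, SE 0.15, edgeR adjusted p = 4.8e-16) and C2 by 0.99. C3, the central component, had 181 and 198 CPM in the NS libraries and 138, 144 and 140.0 CPM with IFNb (log2 fold change -0.43, SE 0.09, edgeR adjusted p = 0.00015). The other member that fell, C1s1, lost its call without IFNb replicate 2, IFNb replicate 3 or either NS library, and C1ra, the fourth that rose, without IFNb replicate 1, IFNb replicate 3 or either NS library. C4b has a near copy, C4a, which was not tested here. Among Slfn and Ly6 genes 5 of 10 rose, led by the surface protein gene Ly6a, also called Sca-1, with 22.3 and 23.9 CPM in the NS libraries and 92.4, 100.2 and 93.6 CPM with IFNb (log2 fold change 2.05, SE 0.12, edgeR adjusted p = 2.5e-19). Of 25 cell death genes 9 rose and 2 fell. The death ligand Tnfsf10, which encodes TRAIL, rose by 1.11 at a mean of 3.13 CPM with IFNb, a call lost without either NS library. Daxx rose by 0.44, Bid by 0.42 and the pro-apoptotic Bcl2l11 fell by 0.64 on the log2 scale. The call for Bcl2l11 was lost without NS replicate 2 and that for Daxx without NS replicate 3. Without NS replicate 3, 5 cell death genes rose. Of 15 targets of NF-kB 3 rose and none fell, and without NS replicate 2 the number was 1.

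**Figure D3:**
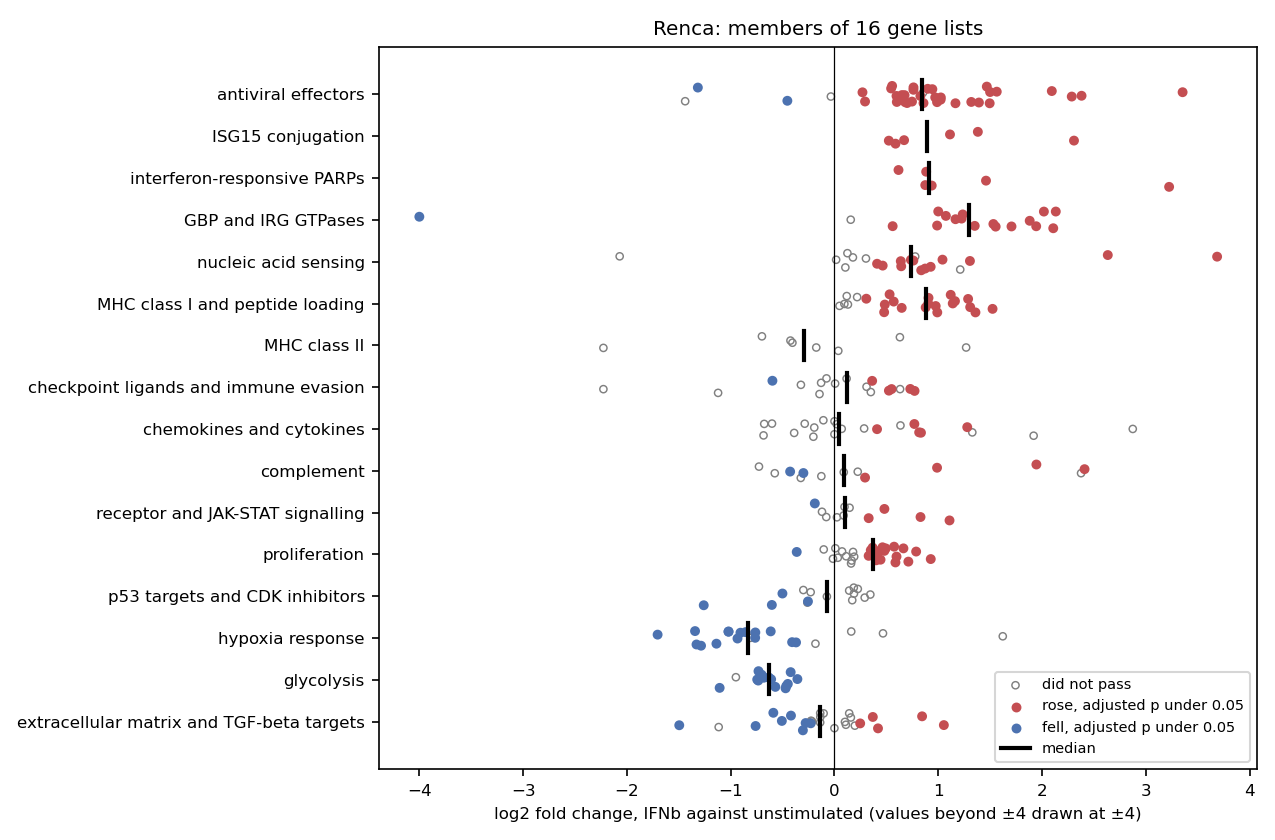
Log2 fold change with IFNb (horizontal axis) of the tested members of 16 gene lists, 1 circle per gene; red circles rose and blue circles fell at an adjusted p under 0.05, open circles did not pass, and black bars are list medians. The medians run from 1.29 for the GBP and IRG GTPases to -0.83 for the hypoxia response.

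Genes of the hypoxia response and of glycolysis fell, and these lists had the lowest medians of the 35. The hypoxia list holds mostly known targets of the HIF transcription factors, which are degraded when oxygen is ample. It also holds genes of the pathway itself, such as Hif1a, Epas1 and Vhl. Of 20 listed, 15 fell and none rose (median log2 fold change -0.83), 7 of them at least 2-fold. Ndrg1, a stress-response gene, had 3802 and 4214 CPM in the NS libraries and 1737, 2075 and 1654 CPM with IFNb (log2 fold change -1.14, SE 0.12, edgeR adjusted p = 4.3e-11). The mitophagy gene Bnip3 had 926 and 897 CPM in the NS libraries and 355, 427 and 306 CPM with IFNb (log2 fold change -1.33, SE 0.25, edgeR adjusted p = 6.3e-05), and Adm, which encodes the vessel-dilating peptide adrenomedullin, had 96.9 and 111 CPM in the NS libraries and 42.7, 46.5 and 38.6 CPM with IFNb (log2 fold change -1.29, SE 0.14, edgeR adjusted p = 2.9e-10). In each of these genes both NS libraries stood above all IFNb libraries, and IFNb replicate 3 was the lowest. Ankrd37 had 22.7 and 17.7 CPM in the NS libraries and 7.10, 7.02 and 4.14 CPM with IFNb. Selenbp1 fell by 1.34, the prolyl hydroxylase Egln1 by 1.02, Ddit4 by 1.02 and the growth factor Vegfa by 0.76 on the log2 scale. The transcript of Hif1a itself did not pass (log2 fold change 0.16, SE 0.09, edgeR adjusted p = 0.3), nor did P4ha1 (log2 fold change -0.18, SE 0.10, edgeR adjusted p = 0.27).

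Glycolysis genes fell in 14 of 15 cases, with none risen (median -0.63). The glucose transporter Slc2a1 had 281 and 344 CPM in the NS libraries and 138, 168 and 128 CPM with IFNb (log2 fold change -1.11, SE 0.13, edgeR adjusted p = 9.6e-10). Ldha, which makes lactate from pyruvate, had 2045 and 2259.7 CPM in the NS libraries and 1282, 1441 and 1158 CPM with IFNb (log2 fold change -0.73, SE 0.13, edgeR adjusted p = 1.2e-05). Pfkp and Pfkl, isoforms of phosphofructokinase, fell by 0.74 and 0.73, and Pgk1 by 0.68. The single gene that did not pass, Slc16a3, was below 1 CPM. Without NS replicate 3 the number fallen was 9, and without NS replicate 2 it was 14. The hypoxia count was 13 and 15 in the same order.

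The summed level shows how the libraries were placed. Over the 20 hypoxia genes it was 9397 and 9807 CPM in the NS libraries and 4788, 5543 and 4564 CPM in IFNb replicates 1, 2 and 3, and over the 15 glycolysis genes it was 12631 and 14065 CPM against 8516, 9556 and 7966 CPM. The 3 IFNg libraries of Renca, which share the NS controls, had 6701 to 7470 CPM for hypoxia and 10729 to 12878 CPM for glycolysis, lying between NS and IFNb for hypoxia and overlapping NS for glycolysis. Ndrg1 alone gave 3802 of the 9397 CPM of the hypoxia sum in NS replicate 2. The part of the mitochondrial share in these sums was not tested.

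Hilpda, a hypoxia-inducible lipid droplet gene, had 64.7 and 54.7 CPM in the NS libraries and 16.7, 19.6 and 13.1 CPM with IFNb (log2 fold change -1.85, SE 0.15, edgeR adjusted p = 7.7e-15). It was the last of the 15 largest falls among genes with more than 3 counts in each group and no overlap between groups, with predicted loci left out. Of the 28 genes with a fitted fall of at least 4-fold, 9 met these conditions, 16 had 3 or fewer counts with IFNb, 2 were predicted loci and 1 had overlapping groups. One of its windows is printed because it holds 3 matches to the core of the hypoxia response element, the letters ACGTG or GCGTG on either strand, shown in capitals.
Hilpda (chr6:29272376-29272675, plus strand): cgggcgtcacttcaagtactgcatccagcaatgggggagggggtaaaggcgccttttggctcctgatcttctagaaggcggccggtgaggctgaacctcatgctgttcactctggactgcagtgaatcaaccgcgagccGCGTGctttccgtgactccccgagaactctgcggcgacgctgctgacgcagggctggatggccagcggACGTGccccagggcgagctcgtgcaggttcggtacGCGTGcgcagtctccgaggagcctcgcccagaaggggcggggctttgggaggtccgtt
This core is short and common: 64.4% of all 11558 tested genes with a window held it, as did 55 of the 83 genes fallen at least 2-fold (66.3%), 16 of 17 hypoxia genes (94.1%) and 26 of the 65 risen genes (40%). The share among fallen genes was close to that of all genes. This motif was searched after the falls had been seen.

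The other 14 falls chosen in this way were mostly at low levels. Tnfrsf9, the costimulatory receptor 4-1BB, had 18.5 and 17.4 CPM in the NS libraries and 4.86, 5.61 and 3.94 CPM with IFNb (log2 fold change -1.89, SE 0.23, edgeR adjusted p = 6.7e-09). Gpr35, a G protein-coupled receptor, had 7.34 and 5.99 CPM in the NS libraries and 1.79, 1.82 and 1.11 CPM with IFNb (log2 fold change -2.06, SE 0.41, edgeR adjusted p = 0.00013), and Scg5, a secretory granule chaperone, had 9.98 and 7.95 CPM in the NS libraries and 2.69, 2.23 and 1.92 CPM with IFNb (log2 fold change -1.96, SE 0.44, edgeR adjusted p = 0.00067). Sprr1a, a cornified envelope gene, had 5.11 and 3.60 CPM in the NS libraries and 0.704, 0.495 and 1.11 CPM with IFNb (log2 fold change -2.55, SE 0.43, edgeR adjusted p = 1.7e-05), and Hsd17b2, which inactivates estradiol, had 3.87 and 4.47 CPM in the NS libraries and 0.767, 0.826 and 0.606 CPM with IFNb (log2 fold change -2.48, SE 0.53, edgeR adjusted p = 0.00097). Lypd1 had 9.73 and 11.7 CPM in the NS libraries and 3.58, 2.56 and 0.908 CPM with IFNb (log2 fold change -2.15, SE 0.59, edgeR adjusted p = 0.0072), and Abcb1a, a P-glycoprotein drug transporter, had 1.15 and 1.42 CPM in the NS libraries and 0.320, 0.413 and 0.202 CPM with IFNb (log2 fold change -1.95, SE 0.43, edgeR adjusted p = 0.00061). Olfr420, Aifm3, Astl, Macc1, Mrc2, Pgf and Ppef2 completed the 15, with log2 fold changes from -2.60 to -1.88 and NS means below 4 CPM. Of these, Olfr420, Aifm3, Astl, Macc1, Pgf and Ppef2 lost their call without NS replicate 2, as Aifm3, Lypd1, Pgf and Ppef2 did without NS replicate 3.

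Several abundant genes fell as well. Ero1l, the endoplasmic reticulum oxidase, had 6090.4 and 5888 CPM in the NS libraries and 2227, 2592 and 1977 CPM with IFNb (log2 fold change -1.40, SE 0.17, edgeR adjusted p = 3.5e-09), and the early response gene Ier3 had 211 and 206 CPM in the NS libraries and 68.2, 85.5 and 58.3 CPM with IFNb (log2 fold change -1.56, SE 0.11, edgeR adjusted p = 3.4e-17). Both were chosen after their values were seen. The metallothioneins, which bind zinc and copper, fell in parallel, Mt1 with 252 and 258 CPM in the NS libraries and 86.6, 119.6 and 99.1 CPM with IFNb (log2 fold change -1.33, SE 0.14, edgeR adjusted p = 6.8e-11) and Mt2 by 1.28 on the log2 scale. Hmox1, heme oxygenase, fell by 0.80. In the same list of oxidative and metal stress genes Gclm, Txnrd1, Fth1 and Sod2 rose, so that 4 of 12 rose and 3 fell, and without NS replicate 2 the calls for Fth1 and Sod2 were lost. Of 26 extracellular matrix and TGF-beta target genes 5 rose and 8 fell. The basement membrane collagen Col4a2 rose from 3.79 and 3.05 CPM to 6.27, 8.75 and 6.76 CPM (log2 fold change 1.05, SE 0.18, edgeR adjusted p = 6.3e-06) and the matrix protein Thbs1 by 0.84. Without NS replicate 2 the list had 4 risen and 4 fallen genes, and without NS replicate 3 it had 5 fallen genes.

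Cell cycle genes rose slightly. Of 28 proliferation genes 17 rose and 1 fell (median 0.37), none by 2-fold. Ccnd1, the cyclin of the G1 phase, had 494 and 506 CPM in the NS libraries and 976, 907 and 972 CPM with IFNb (log2 fold change 0.93, SE 0.06, edgeR adjusted p = 2.6e-19). Plk1, a mitotic kinase, rose by 0.79, Rrm2, a ribonucleotide reductase subunit, by 0.71 and Ccna2 by 0.66, and the exception was E2f1 (log2 fold change -0.36, SE 0.07, edgeR adjusted p = 7e-05), a call lost without NS replicate 2. Pcna did not pass (log2 fold change -0.01, SE 0.07, edgeR adjusted p = 0.99). Cdkn1a, the CDK inhibitor p21, had 215 and 245 CPM in the NS libraries and 86.6, 112 and 89.4 CPM with IFNb (log2 fold change -1.26, SE 0.09, edgeR adjusted p = 1.1e-16), and 4 of 15 p53 targets and CDK inhibitors fell with none risen. With DESeq2, with limma-voom and in the 5 libraries alone 7 of them fell, and with limma-voom and in the 5 libraries alone 1 rose. Btg2 fell by 0.60 and Cdkn1b by 0.50 on the log2 scale. Myc had 238 and 233 CPM in the NS libraries and 177, 183 and 184 CPM with IFNb (log2 fold change -0.38, SE 0.07, edgeR adjusted p = 1.5e-05), whereas 8 of the 16 genes in the list of MYC and ribosome biogenesis rose, such as Dkc1 by 0.50 and Ncl by 0.41. That number was 5 without either NS library.

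Other metabolic and stress lists moved less. Of 22 genes of sterol synthesis 7 fell and none rose (median -0.08), led by Acss2 (log2 fold change -0.63, SE 0.11, edgeR adjusted p = 2.5e-05). Without NS replicate 3 the counts were 3 fallen and 1 risen. Of 16 fatty acid genes 4 fell and 1 rose, and without NS replicate 3 none fell and 3 rose, while without NS replicate 2 none rose. Of 16 unfolded protein and ATF4 response genes 4 fell, with Atf3, a stress-induced transcription factor, at 139.8 and 127 CPM in the NS libraries and 69.6, 72.2 and 63.4 CPM with IFNb (log2 fold change -0.96, SE 0.14, edgeR adjusted p = 2e-07). Without NS replicate 2, 2 of the 16 fell, whereas 8 fell with DESeq2 and 7 when Renca libraries were fitted alone.

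Most lineage genes of the kidney did not pass the test. Of 10 tested, 3 fell: Wt1, a transcription factor of kidney and gonad development, had 35.4 and 24.3 CPM in the NS libraries and 11.1, 11.9 and 9.39 CPM with IFNb (log2 fold change -1.47, SE 0.24, edgeR adjusted p = 8.9e-06), while Pax8 and Cdh16 changed by -0.28 and -0.36 on the log2 scale, both calls lost without either NS library. Pax2 did not pass (log2 fold change 0.27, SE 0.14, edgeR adjusted p = 0.25). None of 14 epithelial, 8 tubule, 4 leukocyte or 4 endothelial genes passed, although 1 endothelial gene did without NS replicate 3. Of 10 mesenchymal genes 2 fell, and none without NS replicate 3. Of 6 fibroblast genes Pdgfrb rose (log2 fold change 0.46, SE 0.10, edgeR adjusted p = 0.00027). The summed level of the leukocyte list was 50.9 to 54.7 CPM in NS and 45.5 to 53 CPM with IFNb, most of it Cd68. Of 13 mitochondrially encoded genes 6 fell, led by mt-Cytb (log2 fold change -0.87, SE 0.17, edgeR adjusted p = 9.6e-05), and none of them passed without NS replicate 2.

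The IFNb response of Renca was then set against the mean response of the other 7 lines, by testing the difference of the log2 fold changes. For 27 genes the response in Renca was at least 2-fold higher (0.167% of those tested) and for 198 it was at least 2-fold lower (1.23%). At any size, 920 were higher (5.7%) and 894 lower (5.54%) at an adjusted p under 0.05. This test gave no result for 2964 genes in which another line had no counts in both of its groups, or 1 line had none with IFNb and another none without. None of these was called. In genes with counts in every IFNb and NS group of the other lines, 16 had an at least 2-fold higher and 148 an at least 2-fold lower response. Of the 198 lower genes 94 nevertheless rose in Renca, 57 fell and 47 did not pass. In the antiviral list 29 of 38 genes had a lower response and none a higher one, and their median was 0.84 in Renca against 3.23 over the other lines. For 3 of the 38 the difference could not be tested. A lower response was also called for 13 of 21 genes of nucleic acid sensing, 14 of 18 GTPases and 16 of 23 genes of class I presentation.

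In the 6 genes with the largest shortfalls the NS level of Renca ranked at 2 or 3 of the 8 lines. Oas2 was at 93.8 CPM in NS Renca cells and at 146 CPM with IFNb. Its mean response was 7.49 over the other lines (difference -6.85, SE 0.21, edgeR adjusted p = 3.6e-33). That mean hides unlike lines, as Oas2 went from 186 to 324 CPM in CT26.2 and from 179 to 202 CPM in YUMMER1.7. Oas1g, Ifi44, Oas1a, Zbp1 and Tgtp1 followed, with differences of -6.13, -5.20, -5.17, -4.75 and -4.62, all called. For Oas2, Oas1g, Zbp1 and Tgtp1 at least 1 other line had no counts without interferon, where a fitted fold change depends on the prior count and is not exact. By line, Isg15 rose by 9.24 in LLC, 7.81 in KPC.2, 6.37 in B16.1, 6.13 in MC38.7 and 2.81 in Panc02.3 on the log2 scale. It changed by 0.52 in CT26.2 and by -0.20 in YUMMER1.7, so that Renca, at 1.11, stood between these lines and the other 5. The NS means of Isg15 were 644 CPM in YUMMER1.7, 303 in CT26.2 and 172 in Renca, against 0.978 to 35.3 CPM in the other 5 lines.

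Levels with IFNb were closer between lines than NS levels for Irf7. It reached 749 CPM in Renca (SD 13.6, n = 3), the highest of the 8 lines, and lay between 131 and 543 CPM in the others. Its NS level in Renca, 278 CPM (SD 8.54, n = 2), was between those of CT26.2 (248, SD 13.3, n = 3) and YUMMER1.7 (285, SD 36.3, n = 3) and did not differ from the latter beyond its spread. Ifit3 had its lowest IFNb level of the 8 lines in Renca, at 43.9 CPM (SD 2.87, n = 3) beside 116 CPM in Panc02.3 (SD 10.3, n = 3). Usp18 and B2m also ranked lowest in Renca. Usp18, at 110 CPM (SD 4.45, n = 3), lay within the spread of Panc02.3 (111 CPM, SD 11.3, n = 3). B2m was at 1083 CPM in Renca (SD 34.1, n = 3) and 1115 CPM in Panc02.3 (SD 24.1, n = 3), a difference that was not tested. In the antiviral list the NS level of Renca ranked among the highest 3 lines for 28 of 38 genes, and its IFNb level was below the median of the other lines for 23 of 38. These ranks are a description and were not tested.

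**Figure D4:**
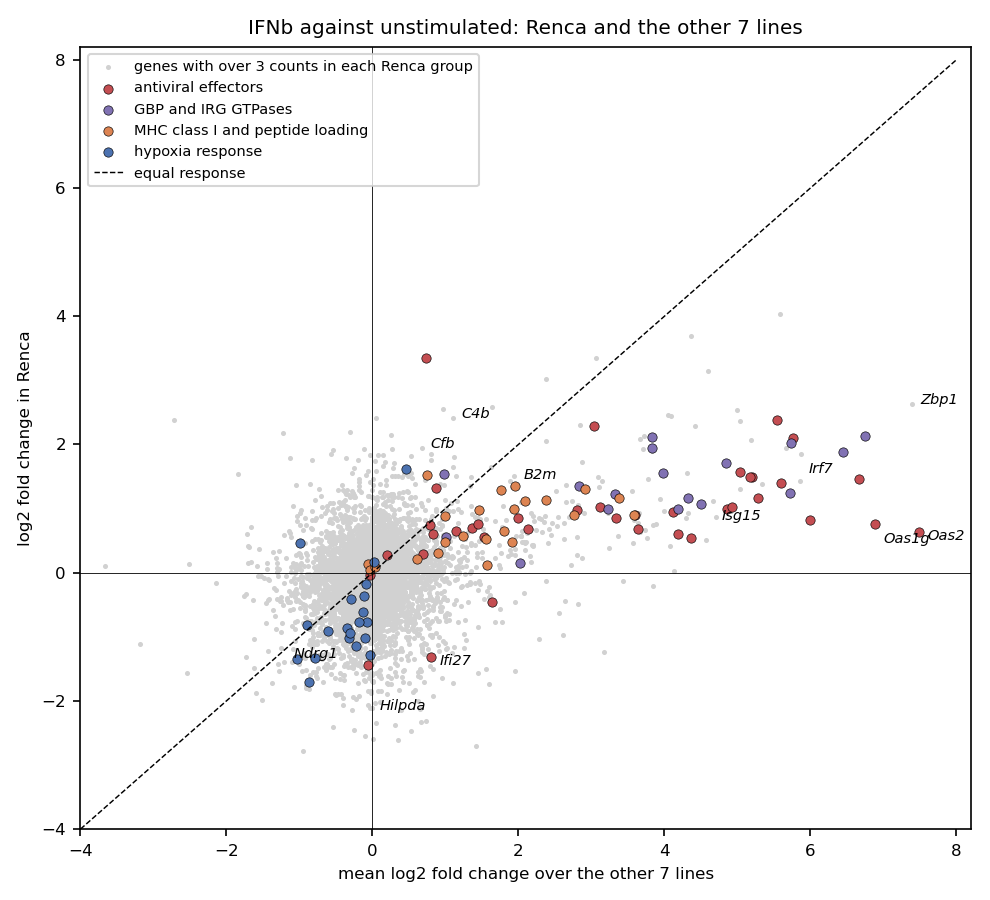
Log2 fold change with IFNb in Renca (vertical axis) against the mean over the other 7 lines (horizontal axis), for 13666 genes with more than 3 counts in each Renca group and for 4 gene lists in colour; the dashed line marks an equal response. Antiviral genes and GTPases spread far to the right below the line, C4b and Cfb lie above it, and hypoxia genes lie mostly below 0 on the vertical axis.

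Of 13 complement genes 2 had a higher and 1 a lower response, and for 4 the difference could not be tested. The genes C4b and Cfb rose more in Renca than in the mean of the other lines (difference 1.30, SE 0.26, edgeR adjusted p = 0.00016 for C4b, and difference 1.26, SE 0.19, edgeR adjusted p = 1.4e-06 for Cfb). C4b also went from 17.0 to 64.7 CPM in KPC.2 and from 0.523 to 2.17 CPM in LLC. In Panc02.3 it went from 0.248 to 1.45 CPM and in B16.1 from 0.732 to 2.04 CPM. It was slightly higher with IFNb in MC38.7 and lower in CT26.2 and YUMMER1.7. Cfb went from 410 to 765 CPM in KPC.2, from 3.20 to 10.9 CPM in LLC and from 0.450 to 1.29 CPM in Panc02.3. It changed little in B16.1, CT26.2, MC38.7 and YUMMER1.7. The lower response was that of C1ra (difference -0.49, SE 0.12, edgeR adjusted p = 0.0028). The 6 largest higher responses by rule were Plxdc1 (difference 3.40, SE 0.66, edgeR adjusted p = 0.00016), Hist1h4b, Rbms3, Bcam, Acot1 and Meis1, of which Hist1h4b, Rbms3 and Acot1 did not pass within Renca itself. In all 6 at least 1 other line had no counts with IFNb, and the fitted mean over the other lines was below 0, from -1.85 for Hist1h4b to -0.58 for Meis1, with -1.23 for Plxdc1. These differences therefore rest in part on fitted falls elsewhere that depend on the prior count. The calls for Hist1h4b, Bcam, Acot1 and Meis1 were lost without NS replicate 2, and that for Rbms3 without NS replicate 3. Among hypoxia genes 9 of 20, and among glycolysis genes 9 of 15, had a lower response in Renca than the mean of the other lines. Both lists also had medians below 0 over the other lines. These were -0.26 for hypoxia and -0.19 for glycolysis, beside -0.83 and -0.63 in Renca. Hilpda changed by -0.02 over the other lines (difference -1.84, SE 0.16, edgeR adjusted p = 1.6e-13) and Ndrg1 by -0.22 (difference -0.92, SE 0.13, edgeR adjusted p = 1.5e-07). Ndrg1 was at 4008 CPM in NS Renca cells, the highest of the lines, the next being 509 CPM in CT26.2. With IFNb it was still the highest at 1822 CPM.

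Growth genes differed in the other direction. Of 28 proliferation genes 16 had a higher response in Renca and 2 a lower one, Ccnd1 among the former (difference 0.76, SE 0.06, edgeR adjusted p = 1.4e-15). Ccnd1 also went from 156 to 259 CPM in B16.1, from 601 to 923 CPM in MC38.7 and from 594 to 654 CPM in LLC. Its mean was slightly lower with IFNb in CT26.2, KPC.2, Panc02.3 and YUMMER1.7. Cdkn1a differed by -1.51, with a positive mean over the other lines (0.25) and a fall in Renca. Cdkn1a went from 216 to 387 CPM in B16.1, from 28.1 to 65.6 CPM in MC38.7 and from 294 to 339 CPM in LLC. In CT26.2, KPC.2, Panc02.3 and YUMMER1.7 its mean was lower with IFNb. Cd274, which did not pass in Renca, rose by 1.74 in the mean over the other lines (difference -1.62, SE 0.11, edgeR adjusted p = 1.5e-18). Those lines differed: Cd274 went from 2.61 to 80.0 CPM in LLC, from 23.5 to 39.2 CPM in CT26.2 and from 34.0 to 25.6 CPM in YUMMER1.7. It was higher with IFNb in B16.1, KPC.2, MC38.7 and Panc02.3 as well. In Renca its NS level of 38.6 CPM was the highest of the 8 lines, and its IFNb level ranked at 2. Ifi27 fell in Renca and in CT26.2 (log2 fold change -1.39), rose in B16.1, KPC.2, LLC and MC38.7, and did not pass in Panc02.3 (0.20) or YUMMER1.7 (-0.28).

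**Figure D5:**
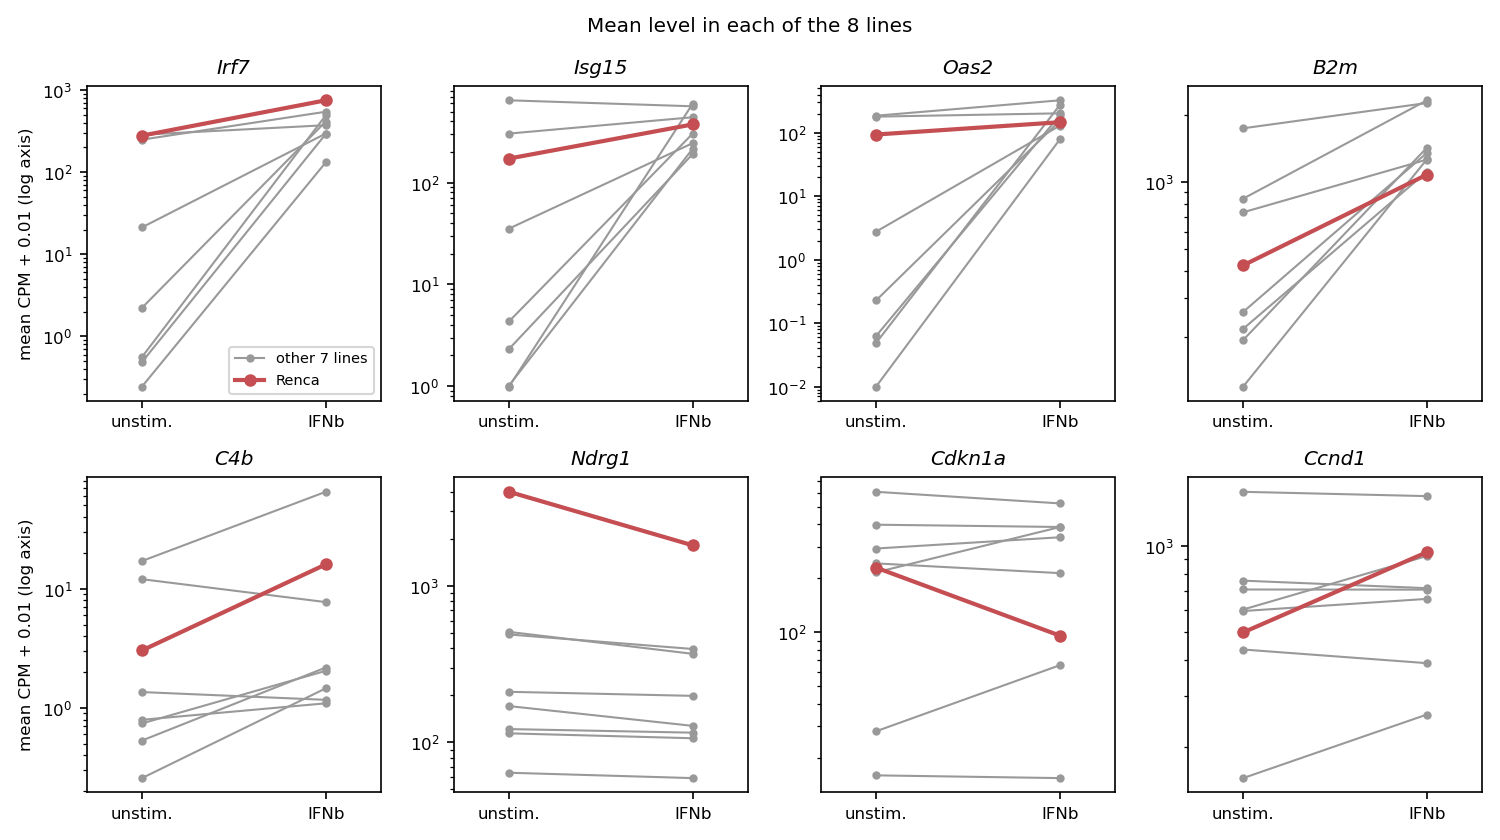
Mean CPM plus 0.01 (vertical log axes, 1 per gene) without interferon and with IFNb in each of the 8 lines, Renca in red. Renca starts among the highest lines for Irf7, Isg15 and Oas2 and stays above every other line for Ndrg1 in both conditions, although that gene fell.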

How the data were processed

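Per the labels' protocols, strand-marking NEB kits were used to build the RNA-seq libraries. Per the submitters' processing notes, the authors used Trimmomatic 0.36 and kallisto (version not given in the sources used here) with mm10/GRCm38. The deposited table holds estimated counts for 35197 gene symbols in 70 libraries as whole numbers, and how transcripts were summed to genes is not given in the sources used here. Kallisto divides reads among similar transcripts by estimation, so near-identical genes are uncertain.

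All 70 libraries were fitted together in R 4.3.3 with edgeR 4.0.16 (filterByExpr over 24 groups, TMM, glmQLFit and glmQLFTest), with 1 coefficient per group of line and treatment. Benjamini-Hochberg adjustment ran over 16147 genes, with a threshold of 0.05. The SE was taken as |log2 fold change| / sqrt(F). Bounds use 3 counts over the NS group. Alternatives used RLE factors, DESeq2 1.42.0, limma 3.58.1 (voom), no filter, a replicate block, Renca libraries alone and each library left out.

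Named genes were the 12 largest rises and 15 largest falls among called genes with more than 3 counts in each group and no overlap between groups, up to 5 genes near 0 in NS, up to 4 passing and 2 not passing genes per list, and 12 departures from the other lines, with predicted loci left out. Members and lists were chosen with earlier results of these data known. Ndrg1, Egln1, Ddit4, Vegfa, Ldha, Pgk1, Oas1a, Oas3, Mx2, Ddx60, Rsad2, Tap2, Tapbp, H2-D1, Psmb8 and other listed genes beyond that rule, with Ero1l and Ier3, were chosen after their values were seen.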

Additional observations from a re-analysis of the deposited data

Results flagged for a closer look

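The response of Renca to IFNb differed from the mean response of the other 7 lines by a test of the difference itself, at least 2-fold higher for 27 genes and lower for 198. Among genes with counts in both Renca groups, the 6 largest lower responses were those of Oas2 (difference of log2 fold changes -6.85), Oas1g (-6.13), Ifi44 (-5.20), Oas1a (-5.17), Zbp1 (-4.75) and Tgtp1 (-4.62). They are lower than the mean of the 7 lines and not than each line. Ifi44 went from 170 to 470 CPM in Renca, from 765 to 1113 CPM in CT26.2 and from 360 to 339 CPM in YUMMER1.7. The 6 largest higher responses were those of Plxdc1 (3.40), Hist1h4b (3.39), Rbms3 (1.89), Bcam (1.74), Acot1 (1.68) and Meis1 (1.67). In each of these 6, and in Oas2, Oas1g, Zbp1 and Tgtp1, at least 1 other line had no counts in a group, so that the size of the difference depends on the prior count.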

How the results depend on the processing

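The counts of genes changed at least 2-fold kept within 1.5 times of their reported size under most alternatives. Without a filter on low counts 170 genes rose in place of 111, and 65 had a higher response than the other lines in place of 27. With limma-voom 41 genes had a higher and 385 a lower response than the other lines, in place of 27 and 198. With genes restricted, after the data were seen, to those with counts in every IFNb and NS group of the other lines, 16 responses were higher and 148 lower. Leaving out 1 library at a time gave 96 to 112 risen genes, 75 to 129 fallen genes, 19 to 23 higher responses and 156 to 212 lower responses. The lowest fallen count came without NS replicate 2. With the replicate block 106 genes rose, 89 fell, 20 responses were higher and 181 lower. Same-numbered IFNb and NS libraries deviated from their group means with correlations of -0.04 and 0.05. Same-numbered IFNg and NS libraries gave 0.27 and 0.24, and same-numbered IFNb and IFNg libraries -0.09, 0.06 and 0.19. The labels do not say what a number shares, and the samples were not treated as paired. The share of risen among changed genes went from 48.1% to 59.9% without NS replicate 2 and 58.3% without IFNb replicate 3. The cause was not tested. Among the lists, 4 sterol genes fell without the filter and in the 8 Renca libraries alone in place of 7, 10 mitochondrially encoded genes fell without the filter in place of 6, and 1 feedback inhibitor rose with the replicate block in place of 3. None of 14 epithelial genes was called, against 3 with DESeq2 and 3 with limma-voom. Of 44 genes followed, 26 kept their call in every alternative that gave a value, and of 486 values 66 lost the threshold and none changed sign. With 2 NS libraries, leaving out 1 assumes that the other varies like the remaining groups.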
